A study of Saccharomyces cerevisiae with 10 samples.

Results

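The genes described here are the 10 genes of budding yeast (Saccharomyces cerevisiae) for the cytosolic synthesis, desaturation, elongation, activation and carriage of fatty acids: *ACC1*, *FAS1*, *FAS2*, *OLE1*, *ELO1*, *ELO2* (also named FEN1), *ELO3* (also named SUR4), *FAA1*, *FAA4* and *ACB1*. They were chosen by name for their roles, with earlier results of these data known, and all 10 were found among the 6607 genes of the count table. RNA was sequenced from 10 cultures in 3 groups, and the question asked of these genes was how their RNA levels differed between cells living with a nonsense allele of *SUP35* and cells with the wild-type allele. *SUP35* encodes the translation termination factor eRF3, and *sup35-218* carries a premature stop codon in it.

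The groups were *sup35-218* at stage 3 (3 cultures, strain 218-L-14-D1690), *SUP35* at stage 3 (4 cultures, strain L-14-D1690) and *SUP35* at stage 1 (3 cultures, strain U-14-D1690). All 3 strains are labelled MATa. In each, HIS3MX replaces the chromosomal copy of *SUP35*, so that a plasmid is the only source of the gene. All carry the alleles ade1-14(UGA), his3-d200, lys2, trp1-289(UAG) and ura3-52 and a mutant allele of *LEU2*. By flow cytometry, the paper found DNA content more varied among cells with the nonsense allele than among wild-type cells. DNA content was not measured in the RNA data, and its part in the results below was not tested. Stage 1 is the strain before shuffling, in which the *URA3* plasmid pRSU2 carries *SUP35*, and stage 3 follows the plasmid shuffling, in which a centromeric *LEU2* plasmid (pRSU1 with *SUP35*, or pRSU1-218 with *sup35-218*) takes its place and cells still holding the *URA3* plasmid are selected against on 5-fluoroorotic acid. The labels name pRSU2 for both *SUP35* groups and SC medium for all cultures, whereas the methods give pRSU1 for *SUP35* at stage 3 and SC medium without uracil or without leucine. Stage, plasmid marker and medium therefore differ together between the *SUP35* groups and cannot be told apart. The number of clones behind each group is not given in the sources used here.

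Genes held 3044096 to 4861009 counted reads in a culture. *SUP35* RNA checked the labels, at 1979 ± 184 normalized CPM (read counts scaled to a common library size; SD, n = 3) in *sup35-218* cultures, 602 ± 139.6 CPM (SD, n = 4) in *SUP35* stage 3 cultures and 436 ± 39.8 CPM (SD, n = 3) in *SUP35* stage 1 cultures. *URA3* RNA was high at stage 1 alone, although the labels name pRSU2 for *SUP35* at stage 3 too, at 72.9 ± 11.9 CPM in *sup35-218*, 81.9 ± 10.9 CPM in *SUP35* stage 3 and 934 ± 139 CPM in *SUP35* stage 1 cultures. *LEU2* RNA was at 6956 ± 435 CPM in *sup35-218*, 2409 ± 457 CPM in *SUP35* stage 3 and 1625 ± 212 CPM in *SUP35* stage 1 cultures. Its *SUP35* groups overlapped, at 1733 to 2743 CPM at stage 3 and 1434 to 1853 CPM at stage 1. The mating-type label was not borne out by the RNA. The 4 genes specific to alpha cells summed to 753 to 1042 CPM in *sup35-218*, 1384 to 1680.0 CPM in *SUP35* stage 3 and 1424 to 1829.8 CPM in *SUP35* stage 1 cultures, and the 6 genes specific to a cells to 100 to 118 CPM in *sup35-218*, 95.9 to 204 CPM in *SUP35* stage 3 and 229 to 547 CPM in *SUP35* stage 1 cultures. No marker was at 0 in any group, and these sums were not divided by gene length. By the edgeR test described below, the alpha-cell genes were lower in *sup35-218* than in *SUP35* stage 3 cultures for 4 of 4 markers. Of all genes tested, 20.7% were lower there. The a-cell genes were lower in both stage 3 groups than at stage 1 for 6 of 6 markers. Beside them, 23.3% of all genes were lower in *sup35-218* and 12.8% in *SUP35* stage 3 cultures. Between the stage 3 groups, 1 a-cell gene of 6 was higher in *sup35-218* and 2 lower, beside 18.5% and 20.7% of all genes. The part of these shifts in the results below was not tested.

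Yeast makes fatty acids in the cytosol from acetyl-CoA. Acc1 carboxylates it to malonyl-CoA, and the fatty acid synthase, a complex of the Fas1 and Fas2 subunits, joins these units into saturated acyl-CoA. The endoplasmic reticulum desaturase Ole1 then places a double bond in these chains, the only route to unsaturated fatty acids in this organism, and the elongases Elo1, Elo2 and Elo3 lengthen them, up to the very long chains of sphingolipids. Free fatty acids from outside or from lipid turnover re-enter the pool as acyl-CoA through the synthetases Faa1 and Faa4, and Acb1 binds and carries acyl-CoA. Membrane fluidity depends on the share of unsaturated chains, and *OLE1* is known for tight control of its transcription and of the stability of its RNA.

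The genes lie on 9 chromosomes, each is a single coding exon in the reference annotation (build R64), and none overlaps another gene of the count table. *OLE1* (YGL055W, chrVII:398628-400160, forward strand) had the largest differences between groups, so the 300 bases of the forward strand that end 201 bases before its start codon, chrVII:398128-398427, are shown from RefSeq, with the ACTCAACAA sequence known as the low oxygen response element of this promoter in capitals.
*OLE1*: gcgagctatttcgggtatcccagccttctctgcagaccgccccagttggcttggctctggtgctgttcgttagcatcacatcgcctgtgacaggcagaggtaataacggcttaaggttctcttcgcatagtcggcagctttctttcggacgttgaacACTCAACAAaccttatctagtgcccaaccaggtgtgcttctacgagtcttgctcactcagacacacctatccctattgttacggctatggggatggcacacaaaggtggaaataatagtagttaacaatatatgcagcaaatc
In windows of 600 bases before the start codon, searched on both strands, ACTCAACAA or its reverse complement was present in 33 of 6571 genes (0.502%) and in 1 of the 10 genes, *OLE1*. The match lies 343 to 335 bases before the start codon. The sequence is known from this promoter, so its presence there was given in advance.

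The hexamer CATGTG, the core of the inositol-sensitive element that the Ino2 and Ino4 activators bind upstream of phospholipid and fatty acid synthesis genes, was present in the windows of 4 of the 10 genes and of 1076 of 6571 genes in all (16.4%). Its surroundings are shown in the direction of each gene for *ACC1* (chrXIV:661671-661756, reverse strand), *FAS2* (chrXVI:108380-108465, forward strand), *ELO2* (chrIII:190385-190470, forward strand) and *FAA1* (chrXV:908904-908989, forward strand), with the hexamer in capitals. It reads CACATG in *FAS2* and *ELO2*, where the match is on the opposite strand.
*ACC1*: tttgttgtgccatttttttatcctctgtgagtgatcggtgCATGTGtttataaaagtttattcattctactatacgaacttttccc
*FAS2*: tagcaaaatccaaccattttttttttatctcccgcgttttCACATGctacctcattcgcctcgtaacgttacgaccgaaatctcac
*ELO2*: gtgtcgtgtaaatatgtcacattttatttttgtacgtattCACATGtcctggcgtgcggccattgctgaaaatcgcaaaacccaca
*FAA1*: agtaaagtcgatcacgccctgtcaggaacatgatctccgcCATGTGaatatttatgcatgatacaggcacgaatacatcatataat
TTACCCG, the sequence bound by the general regulatory factor Reb1, was present in 3 of the 10 windows (*FAS2*, *ELO1* and *ACB1*) and in 691 of 6571 windows in all (10.5%). The 3 sequences do not overlap each other in any of these windows. A match describes letters only, and no binding was measured.

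Members of gene families were distinct enough in sequence to be counted apart. *FAA1* and *FAA4* share 65.9% of aligned coding bases, and their longest run of identical aligned bases, in capitals with 30 bases on either side, is 23 bases long, in *FAA1* at chrXV:910411-910493 and in *FAA4* at chrXIII:760875-760957, both on the forward strand.
*FAA1*: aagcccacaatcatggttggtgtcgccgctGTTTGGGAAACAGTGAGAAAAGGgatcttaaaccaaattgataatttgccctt
*FAA4*: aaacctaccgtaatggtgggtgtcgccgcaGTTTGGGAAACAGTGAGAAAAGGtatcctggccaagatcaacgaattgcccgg
Among the elongase genes the identity was 60.1% to 64.0%, and between *ACC1* and *HFA1*, the gene of the mitochondrial carboxylase, 63.8%. No stretch of 50 bases was shared by any of these 5 pairs.

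Levels of the 10 genes were compared with each other only per length, as CPM divided by gene length in kilobases (RPKM). The carrier gene *ACB1* had the highest level of the 10 in each group, with a mean of 2755 ± 223 RPKM (SD, n = 3) in *sup35-218*, 2169.7 ± 384 RPKM (SD, n = 4) in *SUP35* stage 3 and 1629 ± 90.0 RPKM (SD, n = 3) in *SUP35* stage 1 cultures. It was followed in each group by *FAS2*, *FAA1* and *FAS1*, and *ELO2* was last or next to last. The levels of *FAA1* and *FAS1* overlapped between cultures only in *SUP35* stage 3, and those of *FAS2* and *FAA1* in the other two groups. *OLE1* alone changed its place widely. It was number 5 of the 10 in *sup35-218* cultures at 179 ± 1.51 RPKM, number 8 in *SUP35* stage 3 cultures at 73.6 ± 5.55 RPKM and number 10 in *SUP35* stage 1 cultures at 46.0 ± 0.505 RPKM. In *sup35-218* its range touched neither that of *FAS1* above it nor that of *ACC1* below it, whereas in *SUP35* stage 3 cultures it overlapped with *ELO1* and *FAA4* and at stage 1 with *ELO2*.

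**Figure D1:**
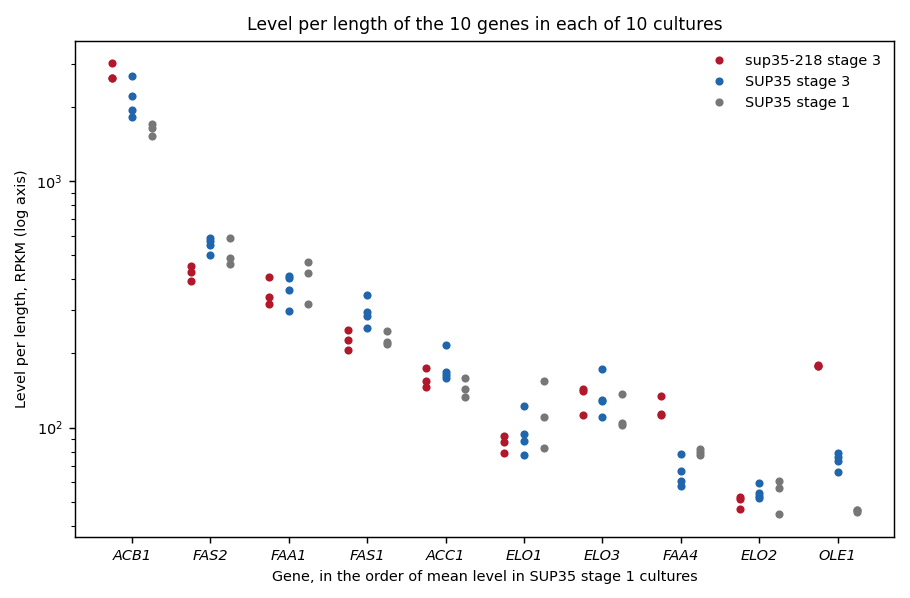
Level per length of each of the 10 genes (vertical log axis, RPKM) in each culture, by group, with genes ordered by their mean in *SUP35* stage 1 cultures. *ACB1* lies above all other genes in every culture, and *OLE1*, last on the right, is the gene whose *sup35-218* cultures (mean 179 RPKM) stand farthest above both *SUP35* groups.

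Against *SUP35* at stage 3, RNA of 2 of the 10 genes was higher in *sup35-218* cultures (*OLE1* and *FAA4*) and RNA of 2 was lower (*FAS1* and *FAS2*) at an adjusted p under 0.05, by the quasi-likelihood test of edgeR, adjusted over the 5856 genes tested by the Benjamini-Hochberg method, which gives every adjusted p below. Of all genes tested, 18.5% were higher and 20.7% lower, 39.2% together, so the count of 4 in 10 is near the background and what follows concerns single genes. The ranges of both groups did not overlap for those same 4 genes, and for 43.7% of all genes tested. Against *SUP35* at stage 1, 3 genes were higher (*OLE1*, *FAA4* and *ACB1*; background 22.9% higher) and 0 lower (background 23.3%), with 0 lower also at an unadjusted p under 0.05 and 1 lower, *FAS2*, by DESeq2 (46.3% of all genes were called in either direction). The ranges did not overlap for 4 genes there (*FAS2*, *OLE1*, *FAA4* and *ACB1*), against 56.5% of all genes. Between the *SUP35* groups, 2 genes were higher at stage 3 (*OLE1* and *ACB1*; background 12.7%) and 0 lower (background 12.8%), with 1 lower, *FAA4*, at an unadjusted p under 0.05 and 0 by DESeq2 (25.4% called in either direction). The ranges did not overlap for 3 genes (*FAS1*, *OLE1* and *ACB1*), against 33.0% of all genes. The median log2 fold change (log2FC) over the 10 genes was -0.088, 0.058 and 0.17 in these 3 comparisons, beside -0.015, 0.039 and -0.0031 over all genes. Each pair of comparisons shares a group of cultures, so they are not independent of each other. RNA was measured in whole cultures, in which fewer cells of a type and less RNA per cell cannot be told apart.

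**Figure D2:**
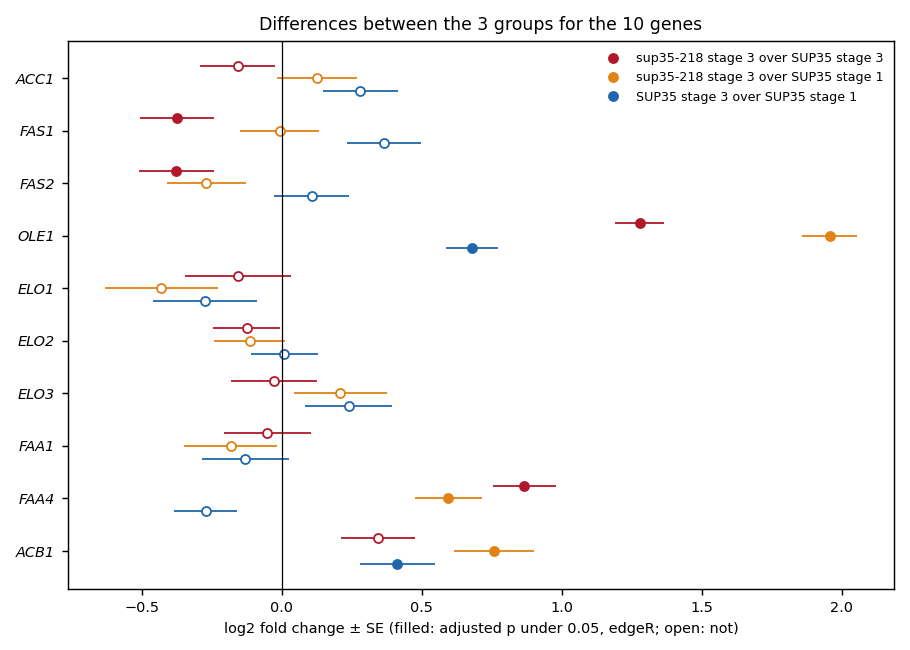
log2FC with its standard error for each of the 10 genes in the 3 comparisons between groups (horizontal axis), with filled points where the adjusted p is under 0.05. *OLE1* is filled in all 3 comparisons (log2FC 1.28, 1.96 and 0.68), and the elongase genes and *FAA1* in none.

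The first committed step showed no difference that passed the test. *ACC1* (YNR016C, chrXIV:654673-661374, reverse strand) had 1172, 1032 and 983 CPM in the *sup35-218* cultures 1 to 3, 1094, 1131, 1066 and 1445 CPM in the *SUP35* stage 3 cultures 1 to 4 and 893, 961 and 1071 CPM in the *SUP35* stage 1 cultures 1 to 3. All 3 groups overlapped, and the highest value came from *SUP35* stage 3 culture 4. The log2FC was -0.16 ± 0.13 (SE, adjusted p = 0.38) for *sup35-218* over *SUP35* at stage 3, 0.12 ± 0.14 (SE, adjusted p = 0.5) for *sup35-218* over *SUP35* at stage 1 and 0.28 ± 0.13 (SE, adjusted p = 0.14) for *SUP35* at stage 3 over stage 1.

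Both subunits of the fatty acid synthase had less RNA in *sup35-218* than in *SUP35* stage 3 cultures, by a small step. *FAS1* (YKL182W, chrXI:100671-106826, forward strand), the gene of the beta subunit, had 1539, 1393 and 1275 CPM in *sup35-218* cultures, against 1814, 1565, 1755 and 2129 CPM in *SUP35* stage 3 cultures. *FAS2* (YPL231W, chrXVI:108652-114315, forward strand), the gene of the alpha subunit with the acyl carrier domain, had 2574, 2424 and 2234 CPM in *sup35-218* cultures, against 3319, 3236, 3128 and 2831 CPM in *SUP35* stage 3 cultures. For both genes every *sup35-218* culture lay below every *SUP35* stage 3 culture. The log2FC was -0.37 ± 0.13 (SE, adjusted p = 0.037) for *FAS1*, which is 1.30-fold lower, and -0.38 ± 0.13 (SE, adjusted p = 0.038) for *FAS2*, which is 1.30-fold lower. These calls were near the threshold: leaving out 1 culture at a time ended each of them in 7 of 10 fits, and without *SUP35* stage 3 culture 4, *FAS1* had a log2FC of -0.29 (adjusted p = 0.087).

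At stage 1 the *SUP35* cultures had 1369, 1345 and 1516 CPM of *FAS1* and 2620.4, 2761 and 3337 CPM of *FAS2*. The *FAS1* values of *sup35-218* overlapped with these, and those of *FAS2* lay just below them. Over *SUP35* at stage 1, the log2FC in *sup35-218* was -0.0076 ± 0.14 (SE, adjusted p = 0.97) for *FAS1* and -0.27 ± 0.14 (SE, adjusted p = 0.13) for *FAS2*, neither past the threshold. *FAS1* was higher in every *SUP35* stage 3 culture than in any stage 1 culture, but its log2FC of 0.37 ± 0.13 (SE, adjusted p = 0.056) did not pass the test, and *FAS2* had 0.11 ± 0.13 (SE, adjusted p = 0.59).

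The ratio of *FAS1* to *FAS2* per length within a culture was 0.550, 0.529 and 0.525 in *sup35-218*, 0.503, 0.445, 0.516 and 0.692 in *SUP35* stage 3 and 0.481, 0.448 and 0.418 in *SUP35* stage 1 cultures. *FAS2* RNA exceeded *FAS1* RNA in all 10 cultures, and the *sup35-218* values lay above those of stage 1 and inside the range of *SUP35* at stage 3, which culture 4 widened at its upper end. Together *ACC1*, *FAS1* and *FAS2* took 0.445 to 0.535% of all counts in *sup35-218*, 0.574 to 0.642% in *SUP35* stage 3 and 0.487 to 0.601% in *SUP35* stage 1 cultures.

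The desaturase gene stood apart from all the others. *OLE1* had 276, 272 and 272 CPM in *sup35-218* cultures, 121, 116, 101 and 113 CPM in *SUP35* stage 3 cultures and 69.6, 70.9 and 70.9 CPM in *SUP35* stage 1 cultures. No range overlapped with another: every *sup35-218* culture was above every *SUP35* stage 3 culture, and each of these was above every stage 1 culture, with replicates of a group close together. The log2FC was 1.28 ± 0.086 (SE, adjusted p = 1.5e-06) over *SUP35* at stage 3, a 2.43-fold higher level, and 1.96 ± 0.097 (SE, adjusted p = 2.4e-08) over *SUP35* at stage 1, a 3.88-fold higher level. *OLE1* ranked 68 and 20 from the top of the 5856 genes by log2FC in these comparisons. *SUP35* cultures themselves differed between stages, with a log2FC of 0.68 ± 0.092 (SE, adjusted p = 0.00022), or 1.60-fold higher at stage 3. Leaving out any 1 culture kept the log2FC between 1.23 and 1.35 over *SUP35* at stage 3 and between 1.95 and 2.01 over stage 1.

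Since *FAS1* and *OLE1* differed in opposite directions between the stage 3 groups, their ratio per length within each culture was also computed. *OLE1* over *FAS1* was 0.721, 0.785 and 0.858 in *sup35-218* cultures, 0.268, 0.298, 0.231 and 0.213 in *SUP35* stage 3 cultures and 0.204, 0.212 and 0.188 in *SUP35* stage 1 cultures. The ratio describes both genes within a culture, and since each alone separated the stage 3 groups, in opposite directions, its separation of those groups adds no support. The median log2FC of the 528 genes tested on chromosome VII was -0.041 over *SUP35* at stage 3.

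**Figure D3:**
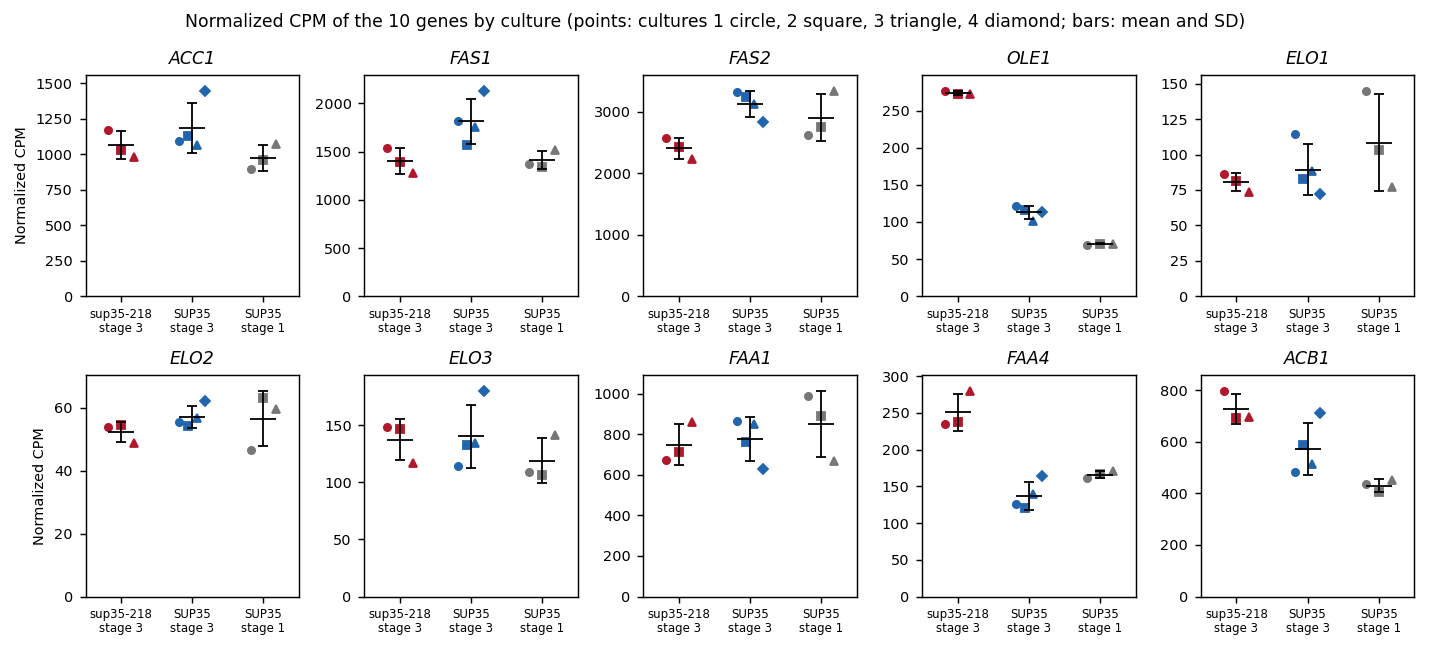
Normalized CPM of each of the 10 genes (vertical axes, from 0) by culture in the 3 groups, with the mean and SD of each group as bars. *OLE1* falls into 3 separate levels, near 274, 113 and 70.5 CPM, and *FAA4* is higher in every *sup35-218* culture than in any *SUP35* culture.

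None of the elongase genes passed the test in any comparison. *ELO1* (YJL196C, chrX:67850-68782, reverse strand), whose enzyme lengthens medium chains, had 86.2, 81.5 and 73.8 CPM in *sup35-218* cultures, 114, 82.5, 88.3 and 72.4 CPM in *SUP35* stage 3 cultures and 145, 103 and 77.1 CPM in *SUP35* stage 1 cultures. Its *SUP35* cultures were widely spread and covered most of the *sup35-218* range, with a log2FC of -0.16 ± 0.19 (SE, adjusted p = 0.55) over stage 3 and -0.43 ± 0.20 (SE, adjusted p = 0.095) over stage 1. Without *SUP35* stage 1 culture 3, the lowest of its group, the log2FC over stage 1 was -0.62 (adjusted p = 0.015), which passed the threshold.

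*ELO2* (YCR034W, chrIII:190592-191635, forward strand), whose enzyme works towards very long chains, had 53.8, 54.6 and 48.7 CPM in *sup35-218* cultures, 55.3, 54.2, 56.7 and 62.0 CPM in *SUP35* stage 3 cultures and 46.6, 63.2 and 59.6 CPM in *SUP35* stage 1 cultures. *ELO3* (YLR372W, chrXII:867354-868391, forward strand), whose enzyme makes the longest chains, had 149, 147 and 117 CPM in *sup35-218* cultures, 114, 133, 134 and 179.9 CPM in *SUP35* stage 3 cultures and 109, 107 and 142 CPM in *SUP35* stage 1 cultures. The groups overlapped for both genes. For *ELO2* the log2FC was -0.12 ± 0.12 (SE, adjusted p = 0.44) over stage 3 and -0.11 ± 0.13 (SE, adjusted p = 0.49) over stage 1, and for *ELO3* -0.029 ± 0.15 (SE, adjusted p = 0.9) and 0.21 ± 0.16 (SE, adjusted p = 0.32). Between the *SUP35* groups, stage 3 over stage 1, *ELO1*, *ELO2* and *ELO3* had log2FC of -0.28 ± 0.19 (SE, adjusted p = 0.3), 0.0097 ± 0.12 (SE, adjusted p = 0.96) and 0.24 ± 0.16 (SE, adjusted p = 0.27). The summed level per length of the elongase genes was 238 to 287 RPKM in *sup35-218*, 268 to 310.3 RPKM in *SUP35* stage 3 and 274 to 305 RPKM in *SUP35* stage 1 cultures, so the groups overlapped here too. *ELO1* over *ELO3* per length was 0.617 to 0.702 in *sup35-218*, 0.448 to 1.11 in *SUP35* stage 3 and 0.605 to 1.48 in *SUP35* stage 1 cultures.

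Of the acyl-CoA synthetase genes, *FAA4* passed the test in both comparisons of *sup35-218* and *FAA1* in neither. *FAA1* (YOR317W, chrXV:909343-911445, forward strand), the gene of the main long-chain synthetase, had 670.1, 711 and 862 CPM in *sup35-218* cultures, 864, 761, 848 and 626 CPM in *SUP35* stage 3 cultures and 987, 889 and 669 CPM in *SUP35* stage 1 cultures. These ranges overlapped, and no comparison passed the test, with a log2FC of -0.052 ± 0.16 (SE, adjusted p = 0.82) over stage 3, -0.18 ± 0.17 (SE, adjusted p = 0.39) over stage 1 and -0.13 ± 0.16 (SE, adjusted p = 0.57) between the *SUP35* groups.

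*FAA4* (YMR246W, chrXIII:759807-761891, forward strand), whose enzyme has the same kind of substrates, had 235, 238 and 279 CPM in *sup35-218* cultures, 126, 121, 139 and 164 CPM in *SUP35* stage 3 cultures and 161, 166 and 171 CPM in *SUP35* stage 1 cultures. Every *sup35-218* culture was above every culture of both *SUP35* groups, while the *SUP35* groups overlapped through culture 4 of stage 3. *FAA4* rose by a log2FC of 0.87 ± 0.11 (SE, adjusted p = 7.3e-05) over *SUP35* at stage 3, or 1.82-fold, and of 0.59 ± 0.12 (SE, adjusted p = 0.0012) over *SUP35* at stage 1, or 1.51-fold. Between the *SUP35* groups the log2FC was -0.27 ± 0.11 (SE, adjusted p = 0.092), and without culture 4 it was -0.37 (adjusted p = 0.021), past the threshold. Unlike *OLE1*, *FAA4* thus had its lowest mean level in *SUP35* at stage 3.

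*FAA4* over *FAA1* per length was 0.353, 0.337 and 0.327 in *sup35-218* cultures, 0.147, 0.160, 0.166 and 0.264 in *SUP35* stage 3 cultures and 0.164, 0.189 and 0.257 in *SUP35* stage 1 cultures. *FAA1* remained the more abundant RNA of the pair per length in every culture. The lowest ratio in *sup35-218* lay above the highest ratio in either *SUP35* group, and the highest *SUP35* values were those of stage 3 culture 4 and stage 1 culture 3.

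**Figure D4:**
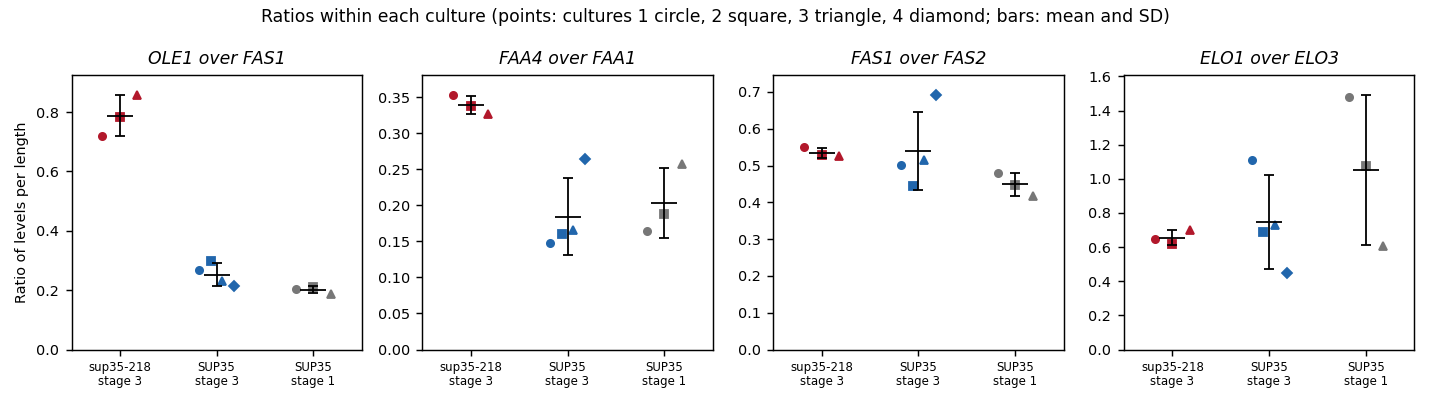
Ratios of levels per length within each culture (vertical axes, from 0) for *OLE1* over *FAS1*, *FAA4* over *FAA1*, *FAS1* over *FAS2* and *ELO1* over *ELO3*, with group means and SD as bars. The *sup35-218* cultures lie above all *SUP35* cultures for *OLE1* over *FAS1* (0.721 to 0.858) and for *FAA4* over *FAA1* (0.327 to 0.353), and inside the *SUP35* ranges for *ELO1* over *ELO3*.

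The carrier gene *ACB1* (YGR037C, chrVII:559731-559994, reverse strand) had 795, 692 and 695 CPM in *sup35-218* cultures, 481, 588, 514 and 709 CPM in *SUP35* stage 3 cultures and 435, 404 and 451 CPM in *SUP35* stage 1 cultures. All stage 3 cultures, of either allele, were above all stage 1 cultures, and the stage 3 groups overlapped through *SUP35* culture 4, which reached the *sup35-218* values. *ACB1* rose by a log2FC of 0.76 ± 0.14 (SE, adjusted p = 0.00076) in *sup35-218* over *SUP35* at stage 1, or 1.69-fold, and of 0.41 ± 0.13 (SE, adjusted p = 0.037) in *SUP35* at stage 3 over stage 1, or 1.33-fold. Over *SUP35* at stage 3 it had a log2FC of 0.35 ± 0.13 (SE, adjusted p = 0.051) in *sup35-218*, short of the threshold. Both results changed side of the threshold without culture 4, where the log2FC was 0.46 (adjusted p = 0.0066) over *SUP35* at stage 3, and 0.29 (adjusted p = 0.082) between the *SUP35* groups. The call between the *SUP35* groups was also lost without *SUP35* stage 3 culture 2 (adjusted p = 0.075) or without any of the stage 1 cultures (adjusted p = 0.051 to 0.14).

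*SUP35* stage 3 culture 4 stood apart from its group for these genes. It was the highest of its group for 6 of the 10 genes and the lowest for 3, and the median size of its log2 deviation from the group mean over the 10 genes was 0.273, against 0.0417 to 0.110 in the other cultures of that group. Over all genes its deviation was 0.143, close to the 0.142 of culture 1. The 10 genes together took 0.678 to 0.764% of all counts in *sup35-218*, 0.754 to 0.835% in *SUP35* stage 3 and 0.682 to 0.767% in *SUP35* stage 1 cultures.

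Genes next to these in metabolism were read from the same test, as lists chosen by role, each log2FC with its SE. Their counts over *SUP35* at stage 3 stand beside 18.5% higher and 20.7% lower of all genes tested, 39.2% together. The elongase cycle and other long-chain steps had 1 higher and 1 lower gene of 5 in *sup35-218* over *SUP35* at stage 3 (list median 0.013). *PHS1*, the dehydratase of the elongation cycle, was higher at 63.4 ± 6.12 CPM in *sup35-218* cultures, against 45.9 ± 3.08 CPM in *SUP35* stage 3 cultures (log2FC 0.47 ± 0.11, adjusted p = 0.0043). *SCS7*, which hydroxylates the very long chains of sphingolipids, was lower at 215 ± 11.3 CPM, against 358 ± 92.3 CPM (log2FC -0.73 ± 0.17, adjusted p = 0.0048), and the reductase genes *IFA38* and *TSC13* had log2FC of 0.071 ± 0.11 (SE, adjusted p = 0.64) and 0.013 ± 0.11 (SE, adjusted p = 0.93). Thus the elongation cycle genes beside the elongases gave 1 call in 3.

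The separate fatty acid synthesis pathway of mitochondria, which supplies lipoic acid, had 5 lower and 1 higher genes of 8, beside 39.2% of all genes called in either direction (list median -0.31). The lower genes with the largest changes were *ACP1*, the acyl carrier protein (log2FC -0.44 ± 0.12, adjusted p = 0.0087), *HTD2*, the dehydratase (log2FC -0.41 ± 0.099, adjusted p = 0.0049), and *ETR1*, the enoyl reductase (log2FC -0.41 ± 0.10, adjusted p = 0.0069). *ETR1* had 405 to 411 CPM in *sup35-218* cultures, against 479.9 to 603 CPM in *SUP35* stage 3 cultures, with no overlap. *HFA1*, named because it is the relative of *ACC1*, was lower as well (log2FC -0.34 ± 0.097, adjusted p = 0.014). Over *SUP35* at stage 1, 2 genes of this list were higher and 3 lower, beside 22.9% and 23.3% of all genes, and *ETR1* had the other direction there (log2FC 0.64 ± 0.11, adjusted p = 0.0004).

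Of 4 genes for acetyl-CoA supply and biotin ligation, 1 passed the test in *sup35-218* over *SUP35* at stage 3, the acetyl-CoA synthetase gene *ACS1*, which was higher (log2FC 0.45 ± 0.13, adjusted p = 0.014). Of 3 other acyl-CoA synthetase genes, 1 passed it, *FAA2* for the peroxisomal medium-chain enzyme, which was higher as well (log2FC 0.43 ± 0.14, adjusted p = 0.027). Neither *ACS1* (log2FC 0.0097 ± 0.14, adjusted p = 0.96) nor *FAA2* (log2FC 0.080 ± 0.15, adjusted p = 0.69) passed the test over *SUP35* at stage 1, and other genes of these lists did. There 2 of the 4 supply genes were lower, the acetyl-CoA synthetase gene *ACS2* (log2FC -0.85 ± 0.14, adjusted p = 0.00029) and the biotin ligase gene *BPL1* (log2FC -0.57 ± 0.13, adjusted p = 0.0026), and 1 of the 3 synthetase genes was higher, *FAA3* (log2FC 0.51 ± 0.17, adjusted p = 0.023), beside 22.9% higher and 23.3% lower of all genes.

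Among 12 regulators of fatty acid genes, 4 were higher and 2 lower in *sup35-218* over *SUP35* at stage 3, 6 of 12 beside 39.2% of all genes (list median 0.084). The higher ones include *MGA2* and *UBX2*, of the control of *OLE1*, and the lower ones *PIP2* (log2FC -0.53 ± 0.14, adjusted p = 0.0081). *PIP2* was also lower in *sup35-218* over *SUP35* at stage 1 (log2FC -1.15 ± 0.15, adjusted p = 3.2e-05). Between the *SUP35* groups it was lower at stage 3 (log2FC -0.62 ± 0.13, adjusted p = 0.0047). *MGA2*, one of the membrane-bound activators of *OLE1*, had 171 ± 13.5 CPM in *sup35-218* cultures, against 119 ± 18.3 CPM in *SUP35* stage 3 cultures (log2FC 0.52 ± 0.12, adjusted p = 0.0035). *UBX2*, which takes part in the release of these activators from the membrane, had 69.7 ± 5.12 CPM, against 42.7 ± 3.73 CPM (log2FC 0.71 ± 0.11, adjusted p = 0.00021). The related activator gene *SPT23* had a log2FC of 0.23 ± 0.17 (SE, adjusted p = 0.33). Over *SUP35* at stage 1 the log2FC was 0.72 ± 0.13 (SE, adjusted p = 0.00049) for *MGA2*, 0.39 ± 0.11 (SE, adjusted p = 0.012) for *UBX2* and -0.099 ± 0.18 (SE, adjusted p = 0.69) for *SPT23*. *MGA2* and *UBX2* thus passed the test in both comparisons, and *SPT23* in neither. Between the *SUP35* groups, stage 3 over stage 1, where *OLE1* was higher, *UBX2* was lower (log2FC -0.32 ± 0.11, adjusted p = 0.043) and *MGA2* did not pass the test (log2FC 0.20 ± 0.12, adjusted p = 0.24). Any link of these genes to the level of *OLE1* was not tested.

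The genes of the Ino2 and Ino4 pair differed in opposite directions. *INO2* was higher (log2FC 0.65 ± 0.11, adjusted p = 0.00059) and *INO4* lower (log2FC -0.33 ± 0.10, adjusted p = 0.02) in *sup35-218* over *SUP35* at stage 3, while their repressor gene *OPI1* had a log2FC of -0.33 ± 0.13 (SE, adjusted p = 0.052). Over *SUP35* at stage 1, *INO2*, *INO4* and *OPI1* had log2FC of 0.23 ± 0.12 (SE, adjusted p = 0.13), -0.18 ± 0.11 (SE, adjusted p = 0.18) and -0.16 ± 0.13 (SE, adjusted p = 0.36), none past the threshold. Between the *SUP35* groups, *INO2* was lower at stage 3 than at stage 1 (log2FC -0.42 ± 0.11, adjusted p = 0.017). *INO4* (log2FC 0.14 ± 0.10, adjusted p = 0.31) and *OPI1* (log2FC 0.17 ± 0.13, adjusted p = 0.33) did not pass the test there. The 4 genes of the set with CATGTG in their windows had log2FC over *SUP35* at stage 3 of -0.16 (*ACC1*), -0.38 (*FAS2*), -0.12 (*ELO2*) and -0.052 (*FAA1*), of which *FAS2* passed the test. *REB1* was higher in both comparisons, with a log2FC of 0.65 ± 0.14 (SE, adjusted p = 0.0025) over stage 3 and 0.63 ± 0.15 (SE, adjusted p = 0.004) over stage 1. The whole regulator list had 3 higher and 2 lower genes over *SUP35* at stage 1, beside 46.3% of all genes in either direction, and 3 that passed the test between the *SUP35* groups, each lower at stage 3, beside 12.8% of all genes.

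Of 10 genes of peroxisomal fatty acid breakdown, 1 was higher and 3 lower in *sup35-218* over *SUP35* at stage 3, beside 39.2% of all genes in either direction (list median -0.14). *POT1*, the thiolase of the last step, was higher (log2FC 0.87 ± 0.19, adjusted p = 0.0028), and *SPS19* and *ECI1*, auxiliary enzymes for unsaturated chains, were lower (log2FC -0.73 ± 0.13, adjusted p = 0.00082 and -0.43 ± 0.13, adjusted p = 0.02), while *DCI1*, for a related enzyme, did not pass the test (log2FC 0.19 ± 0.22, adjusted p = 0.52). *POT1* was higher over *SUP35* at stage 1 too (log2FC 1.37 ± 0.21, adjusted p = 0.00016), but neither *SPS19* (log2FC 0.32 ± 0.15, adjusted p = 0.096) nor *ECI1* (log2FC -0.23 ± 0.14, adjusted p = 0.2) passed the test there, and *SPS19* was higher in *SUP35* at stage 3 than at stage 1 (log2FC 1.05 ± 0.14, adjusted p = 0.00016). Of 16 sphingolipid genes, 4 were higher and 5 lower over *SUP35* at stage 3, beside the same 39.2% (list median -0.057), among them the ceramide synthase gene *LAG1*, at 107 to 118 CPM in *sup35-218* cultures, against 235 to 261 CPM in *SUP35* stage 3 cultures (log2FC -1.10 ± 0.093, adjusted p = 4.1e-06). *TSC3*, which stimulates the first enzyme of the pathway, was lower (log2FC -0.80 ± 0.12, adjusted p = 0.00017) and the mannosyltransferase gene *SUR1* higher (log2FC 0.73 ± 0.19, adjusted p = 0.0074). Of 6 genes of triacylglycerol storage, 2 passed the test there, beside 39.2% of all genes, both lower: the lipase gene *TGL4* (log2FC -0.67 ± 0.10, adjusted p = 0.00022) and the acyltransferase gene *DGA1* (log2FC -0.47 ± 0.096, adjusted p = 0.0018). In no list did every gene pass the test in a single direction. Both lower genes of triacylglycerol storage were also lower over *SUP35* at stage 1 (log2FC -0.79 ± 0.11, adjusted p = 5.1e-05 for *TGL4* and -0.88 ± 0.10, adjusted p = 1.4e-05 for *DGA1*). *SCS7*, *FAA2*, *UBX2* and *SPS19* each share part of their length with another gene, 7.16% to 53.8%, and the strand setting of the counting is not given in the sources used here, so their values are less certain.

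**Figure D5:**
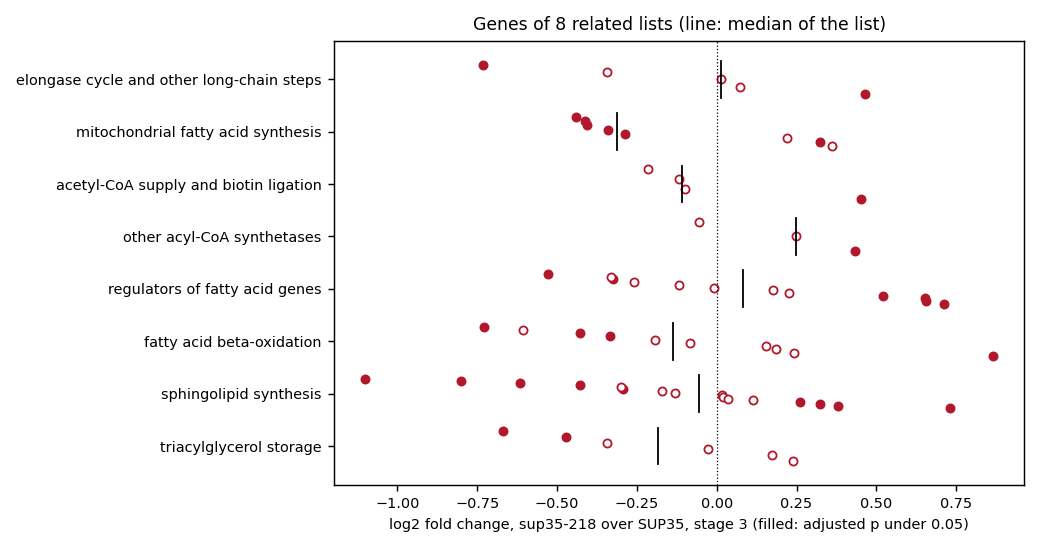
log2FC in *sup35-218* over *SUP35* at stage 3 (horizontal axis) for each gene of the 8 related lists, filled where the adjusted p is under 0.05, with the list median as a line. Filled points lie on both sides of 0 in 5 of the lists, and mitochondrial fatty acid synthesis has the lowest median (-0.31).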

How the data were processed

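RNA of 10 cultures was sequenced by the authors from directional paired-end libraries. Per the labels and methods, reads were trimmed with Trimmomatic, aligned to the S288C genome (R64-3-1) with HISAT2 and counted per gene with featureCounts (versions not given in the sources used here), and the authors deposited raw counts for 6607 genes without normalization. The 28 mitochondrial genes held 0 counts. Group, stage and replicate number come from the sample descriptions, and the strain names from the sample titles. The numbers name separate cultures, called biological replicates by the authors. Counts were normalized by TMM and tested with edgeR 4.0.16 (quasi-likelihood, filterByExpr with a minimum count of 10, 5856 genes, all 3 groups in 1 fit; R 4.3.3, limma 3.58.1), with Benjamini-Hochberg adjustment and a threshold of 0.05. SE is the log2FC divided by the square root of the F statistic, as a size. CPM uses TMM-scaled library sizes, and RPKM divides it by the gene length in the table. Totals of 3044096 to 4861009 counts put 3 counts at 6.17e-05% to 9.86e-05% of a culture's counts, for counting error only.

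The 10 genes, the related lists and the tests were chosen with earlier results of these data known. All 10 genes are named; of each related list, up to 3 genes with the largest log2FC among those called over *SUP35* at stage 3, and always *MGA2*, *SPT23*, *INO2*, *INO4* and *OPI1*. *IFA38*, *TSC13*, *HFA1*, *ACS2*, *BPL1*, *FAA3*, *PIP2* and *DCI1* were named outside this rule after their values were seen. The window of 600 bases was also chosen after the reference was seen. Alternatives were DESeq2 1.42.0 size factors, upper quartile scaling, DESeq2's Wald test, a fit of only the groups compared, no filter, at least 10 counts in every culture, glmTreat against a log2FC of 0.5, the replicate number as a block, leaving out each culture, and coding length from the annotation. The main edgeR fit and DESeq2's Wald test were run on simulated counts with planted changes, and the other steps were not. Sequences are RefSeq's for build R64, against which 5924 genes matched by name, 99.6% of them at the same coordinates.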

Additional observations from a re-analysis of the deposited data

Results flagged for a closer look

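In *SUP35* stage 3 culture 4, *FAA4* over *FAA1* per length was 0.264, far from the other cultures of its group at 0.147, 0.160 and 0.166. Its gap to the nearest of these was 0.844 of the group's range, above Dixon's critical value for 4 samples at the 95% level. This was the 1 such case among 17 quantities examined in this group, and chance alone gives about 1 in 20. The other groups have 3 cultures each and were not examined in this way.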

How the results depend on the processing

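*OLE1* kept its direction and passed the threshold under all 18 alternatives over *SUP35* at stage 3 (log2FC 1.23 to 1.35) and at stage 1 (1.92 to 2.02), and *FAA4* under all 18 over stage 3 (0.81 to 0.96) and 17 over stage 1. A test against a log2FC of 0.5 with glmTreat called 2 of the 10 genes over stage 3, 1 over stage 1 and 0 between the *SUP35* groups, where 1 gene, *OLE1*, had an unadjusted p under 0.05 and DESeq2's test called 3. A threshold on the size of the change makes that test stricter by construction. Leaving out each culture gave 2 to 4 calls over stage 3, 3 to 4 over stage 1 and 1 to 2 between the *SUP35* groups. *FAS1* and *FAS2* were called over stage 3 in 7 and 9 of 18 alternatives, and *ACB1* in 4, and the cause was not tested. With upper quartile scaling, *ELO3* over stage 3 had a log2FC of 0.0065 and *FAS1* over stage 1 of 0.056, against the main sign. Leaving out cultures also turned the sign of small differences: *FAS1* over stage 1 (-0.041 to 0.099), *ELO1* (-0.24 to 0.026), *ELO3* (-0.080 to 0.11) and *FAA1* (-0.14 to 0.063) over stage 3, and *ELO2* between the *SUP35* groups (-0.11 to 0.11). Coding length gave the same RPKM.

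Replicate numbers recur in the groups. Same-numbered cultures (numbers 1 to 3) deviated together with r of 0.027, 0.10 and 0.18 between the stage 3 groups. The r was -0.00063, -0.052 and -0.24 between *sup35-218* and stage 1, and 0.41, -0.0044 and -0.18 between the *SUP35* groups. Differently numbered cultures had r of -0.21 to 0.099, -0.18 to 0.19 and -0.43 to 0.34 in these 3 comparisons. Deviations are from group means of 3 or 4 cultures, so these values cannot decide whether the numbers pair cultures. Taking that number as a block, edgeR called 4 genes over *SUP35* at stage 3 (*FAS1* lost, at log2FC -0.29, and *ACB1* gained, at 0.46), 4 over stage 1 (*ELO1* gained, at -0.40) and 2 between the *SUP35* groups (*ACB1* lost, at 0.29, and *FAA4* gained, at -0.37). The sign turned for *ELO3* over stage 3 (0.12) and *ELO2* between the *SUP35* groups (-0.023). As only *SUP35* at stage 3 has a replicate 4, the block takes that culture out of the estimates.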
